A study of Mus musculus with 50 samples.

Results

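The SLC25 family is the set of carrier proteins that move metabolites, nucleotides, cofactors and metal ions across the membranes of mitochondria. Members were taken as the protein-coding genes of the GENCODE vM21 annotation whose symbol is *Slc25a* followed by a number and that reached 1 CPM (a gene's count relative to the library total) in at least 5 libraries. Of 47 genes with such a symbol, 40 met this level, among 15012 protein-coding genes that did and 55487 annotated genes in the counts. The other 7, *Slc25a2*, *Slc25a21*, *Slc25a31*, *Slc25a41*, *Slc25a43*, *Slc25a48* and *Slc25a54*, reached 1 CPM in 0 of the 50 libraries and had at most 28 counts in any library. Their change is not described here. Of the 40 members, *Slc25a34* reached the level only in the 30 libraries of P7, P35 and P70, and its higher postnatal level is therefore part of how it entered.

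Messenger RNA was sequenced from mouse frontal cortex at embryonic days 14 and 18 (E14, E18) and postnatal days 7, 35 and 70 (P7, P35, P70), with 5 wild-type and 5 *Setd1a*+/- libraries at each age. *Setd1a* encodes a histone H3 lysine methyltransferase. *Setd1a*+/- animals carry a single copy of the tm1d loss-of-function allele, made through a knockout-first design, and the sources used here name no other allele or agent in either genotype. The labels give the strain as C57BL/6NTac, whereas the methods describe a mixed C57BL/6NTac and C57BL/6J background, male animals and, for embryos, dissection of the frontal part of the brain. Embryonic ages are given here as labelled, E14 and E18, whereas the methods place both later within those days. Each library is labelled as a separate replicate. Because whole tissue was used, fewer cells of a type and less RNA per cell cannot be told apart in any difference between ages or genotypes below.

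Nearly all SLC25 carriers sit in the inner mitochondrial membrane, which small charged molecules cannot cross unaided. They commonly work as exchangers: ADP/ATP translocases bring ADP in and send ATP out, the phosphate carrier supplies phosphate to ATP synthase, and the aspartate/glutamate and oxoglutarate/malate carriers form the malate-aspartate shuttle, which passes reducing equivalents from the cytosol to the matrix. In brain, this shuttle is regarded as a main route for cytosolic NADH in neurons, and several carriers exist as pairs of close relatives with different tissue or cell-type preferences.

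Total counts ranged from 35507165 to 43907318 per library, and the members held between 0.206% and 0.306% of them. Depth was ample for most members and thin for a few: the lowest count of a member in any library was 7 (*Slc25a34*) and the highest was 23701 (*Slc25a4*). Gene-level counts of *Setd1a* ran from 70.2 to 136.5 CPM in wild-type and from 76.4 to 150.2 CPM in *Setd1a*+/- libraries, with a log2 difference of 0.10 (standard error 0.025, adjusted p = 0.00679, edgeR). They span the whole gene, and 3523 of its 6795 exonic bases are shared with *Gm49388*, so they do not check the deleted part, and the genotype is used as labelled. Neuronal markers (*Snap25*, *Syt1*, *Rbfox3*, *Slc17a7*, *Gad1*) were all detected, summing to between 331 and 550 CPM in wild-type libraries at E14 and between 5977 and 6862 CPM at P70. Libraries that stood apart were wild-type replicate 5 at E14 and replicate 2 at E18, which held 60159 and 55644 counts of *Xist* in a design described as male, and wild-type replicate 2 at P7, in which choroid plexus markers summed to 610 CPM against 1.83 to 2.48 CPM in the other 4 wild-type libraries of that age. All of them are wild-type, so leaving them out trims only the wild-type groups. Over all tested genes, the SD of log2 CPM around the group mean was higher in some libraries that were kept. It was 0.483 in *Setd1a*+/- replicate 2 at E14 against 0.423 in wild-type replicate 5. At E18 it was 0.426 in wild-type replicate 5 against 0.328 in replicate 2. For the comparisons between genotypes and the age steps in wild-type cortex, counts of called members are given with and without these libraries, and single values are given so where leaving them out changed a call or moved a called value by over 1.5 times.

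Levels are first given per exon length as RPKM from CPM scaled by the trimmed mean of M-values (TMM), which allows carriers to be compared with each other. The pool was dominated by few genes. In wild-type cortex at E14, *Slc25a4* (ADP/ATP translocase 1) stood at 135 ± 12.7 RPKM (SD, n = 5), *Slc25a5* (ADP/ATP translocase 2) at 127 ± 20.01 RPKM and *Slc25a3* (the phosphate carrier) at 47.0 ± 3.88 RPKM. The first 2 of these did not differ beyond their spread, and *Slc25a3* lay below both. At P70 the order of the leading carriers was *Slc25a4* (243 ± 12.6 RPKM, n = 5), *Slc25a5* (123 ± 6.98), *Slc25a3* (75.7 ± 2.59) and *Slc25a23* (69.9 ± 1.44), a calcium-regulated ATP-Mg/phosphate carrier. After these, *Slc25a22* (43.8 ± 1.56) and *Slc25a11* (43.02 ± 3.79) did not differ beyond their spread. Together, *Slc25a4*, *Slc25a5* and *Slc25a3* made up 47.3% ± 3.33 (SD, n = 5) of the summed RPKM of the members at E14 and 48.3% ± 0.820 at P70 in wild-type cortex, a share that stayed within its spread while the sum rose from 653 ± 27.8 to 914 ± 27.7 RPKM. The corresponding shares in *Setd1a*+/- cortex were 48.4% ± 0.689 and 49.2% ± 0.489, with sums of 642 ± 24.2 and 900 ± 24.2 RPKM. At the other end, 7 members lay under 2 RPKM at both ages in wild-type cortex. Taking each age by itself, *Slc25a34* was the lowest at E14 (0.103 RPKM) and *Slc25a13* at P70 (0.583 RPKM).

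The next comparison asked how carrier transcripts changed with age. Between E14 and P70 in wild-type cortex, 34 of the 40 members differed (edgeR quasi-likelihood test with Benjamini-Hochberg adjustment over 16330 protein-coding genes, adjusted p under 0.05), 21 higher and 13 lower at P70. This share of 85% was close to the 85.6% of all tested genes that were called. By direction, 52.5% of the members were higher and 32.5% lower, against 42.8% and 42.9% of all tested genes, which are the backgrounds of the counts by role below. A change of at least 2-fold was called for 17 members, 12 higher and 5 lower, or 42.5%, against a background of 46.7%. The 12 include *Slc25a34*, which became a member only through its postnatal level. The median log2 change was 0.38 for the members and 0.00 for all tested genes. The 6 members without a call were *Slc25a5*, *Slc25a15*, *Slc25a28*, *Slc25a38*, *Slc25a40* and *Slc25a53*, with log2 changes between -0.12 and 0.02. In *Setd1a*+/- cortex, which shares no library with the wild-type comparison, 35 of 40 were called (background 85.3%), and the median change was 0.40.

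**Figure D1:**
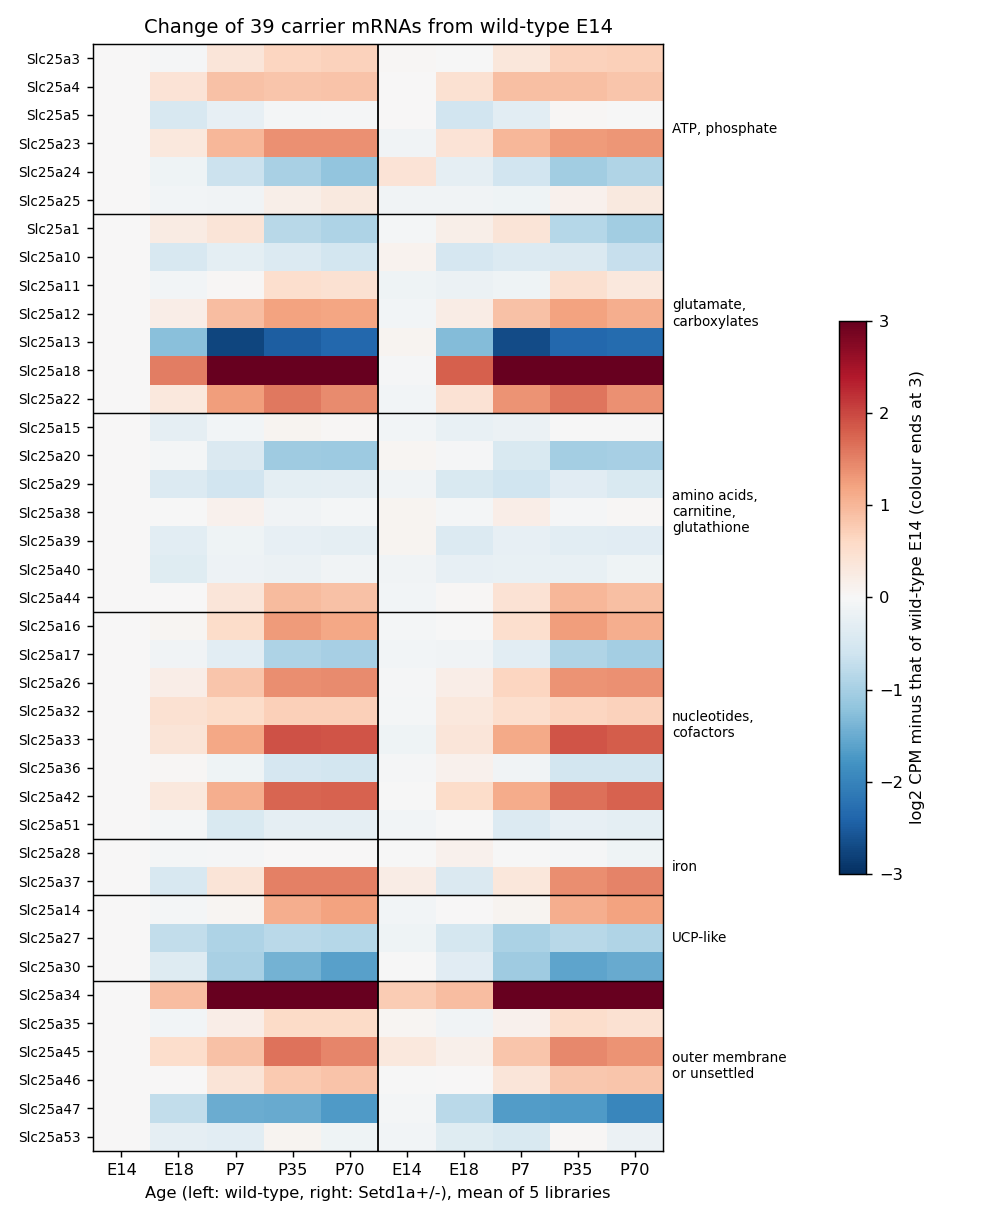
Mean log2 CPM of 39 members in each age and genotype (n = 5 libraries each) minus the value in wild-type cortex at E14, with members in rows by role and ages in columns, wild-type at left and *Setd1a*+/- at right. Red marks a higher and blue a lower level than wild-type E14, colours end at a log2 difference of 3, and *Slc25a18* and *Slc25a34* go past that end from P7 on.

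The steps between neighbouring ages were compared next. From E14 to E18, 24 of 40 members were called in wild-type cortex, 12 higher and 12 lower (60%, background 65.9%, 31.8% higher and 34.1% lower). From E18 to P7, 34 were called, 24 higher and 10 lower (85%, background 67.3%, 33.9% higher and 33.4% lower), and from P7 to P35, 31 were called, 24 higher and 7 lower (77.5%, background 67%, 32.6% higher and 34.3% lower). A change of at least 2-fold was called for 3 members (7.5%) in each of these 3 steps, against backgrounds of 16.4%, 15.9% and 19.2%. The median log2 change of the members was -0.06, 0.20 and 0.23 in these steps, against -0.01, 0.00 and -0.01 over all tested genes. Without the 3 libraries that stood apart, these steps gave 25, 29 and 30 called members in wild-type cortex (backgrounds 65.2%, 66.2% and 67.3%), the step from P35 to P70 gave 0 (background 1.83%), and 34 were called from E14 to P70 (background 85.5%). With each library left out in turn, the count from E18 to P7 ranged from 28 to 34. It was 28 without wild-type replicate 1 at E18 (background 65%) or replicate 4 at P7 (background 64.5%). From P35 to P70, 0 of 40 members were called (edgeR, background 1.06%), 4 had an unadjusted p under 0.05 (background 11.3%), and DESeq2 and limma-voom also called 0 (backgrounds 1.65% and 0.974%). *Setd1a*+/- libraries gave 26, 30 and 31 called members in the first 3 steps (backgrounds 64.5%, 67.8% and 67.8%). In the step from P35 to P70 they gave 0 (background 2.98%), with 9 at an unadjusted p under 0.05 (background 16.2%), 2 by DESeq2 (background 4.32%) and 0 by limma-voom (3.44%). Neighbouring steps share libraries, so their counts are not independent of one another.

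Carriers of ATP and phosphate: of 6 members, 4 were called higher and 1 lower at P70 than at E14 in wild-type cortex. *Slc25a4* rose by 0.84 on the log2 scale (standard error 0.049), *Slc25a3* by 0.69, *Slc25a23* by 1.35 and *Slc25a25*, another calcium-regulated ATP-Mg/phosphate carrier, by 0.31. The third of the calcium-regulated group, *Slc25a24*, went the other way, with a log2 change of -1.22 (standard error 0.17, adjusted p = 6.1e-09, edgeR). *Slc25a24* was at 4.91, 6.40, 6.45, 6.98 and 9.34 CPM in the wild-type libraries at E14 and at 2.17, 2.97, 3.02, 3.19 and 3.23 CPM at P70. The 2 sets of libraries did not overlap.

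The translocase pair showed different courses. *Slc25a4*, the form known from heart, muscle and brain, was at 115, 132.6, 141, 141 and 148 RPKM in the wild-type libraries at E14, and at 239, 245, 247, 254 and 262 RPKM at P7. *Slc25a5*, the form known from proliferating and many other cells, was at 107, 114, 123, 132.8 and 158.1 RPKM at E14, at 86.3, 86.9, 87.7, 93.2 and 93.9 RPKM at E18, and at 118, 119, 121, 123 and 135 RPKM at P70. *Slc25a4* thus climbed to its plateau by P7, whereas *Slc25a5* dipped at E18 (log2 change -0.50, adjusted p = 1.16e-09, edgeR) and returned to its E14 range. The ratio of *Slc25a4* to *Slc25a5* was 1.07-fold at E14 and then 2.01-, 2.34-, 2.00- and 1.97-fold at the later ages in wild-type cortex, and from 1.07-fold to 2.17-, 2.53-, 1.96- and 1.94-fold in *Setd1a*+/- cortex. On the log2 scale the ratio ran from -0.17 to 0.31 among wild-type libraries at E14 and from 0.933 to 1.048 at P70. The low end at E14 is replicate 5, which stood apart by *Xist*. Without it the log2 ratio at E14 ran from 0.0142 to 0.3107, and the fold was 1.12. A processed pseudogene of *Slc25a5* is annotated, and reads shared with such a copy could be split or lost by the authors' counting.

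Carriers of glutamate and carboxylates held the widest range of any role, from the largest rise to the largest fall among the members. *Slc25a18* (glutamate carrier 2, known from astrocytes) was at 0.514, 0.618, 0.694, 0.753 and 0.794 RPKM in the wild-type libraries at E14 and at 21.9, 22.2, 22.9, 23.1 and 25.6 RPKM at P70. Its log2 change was 5.10 (standard error 0.14, adjusted p = 6.36e-33, edgeR) in wild-type and 5.18 in *Setd1a*+/- cortex. Most of the rise fell between E18 and P7, when its log2 change was 3.22 in wild-type cortex. Over the same ages the summed level of 5 astrocyte markers (*Aqp4*, *Gfap*, *Aldh1l1*, *Gja1*, *Slc1a2*), all of them higher at P70, went from 140 to 163.1 CPM at E14 to 2606 to 3218 CPM at P70 in wild-type libraries. The part of astrocyte number in the rise of *Slc25a18* was not tested.

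Its close relative *Slc25a22* (glutamate carrier 1) rose by 1.41 on the log2 scale (standard error 0.081), from 13.6, 16.1, 16.4, 17 and 19.2 RPKM at E14 to 42.6, 42.8, 43.1, 44.4 and 46.3 RPKM at P70 in wild-type libraries. In the wild-type libraries at P7 it was at 28.4, 41.2, 41.5, 42.9 and 44.7 RPKM, and the low value belongs to replicate 2, the library with choroid plexus markers. *Slc25a22* exceeded *Slc25a18* by 24.5-fold at E14 and by 10.2-, 2.10-, 2.27- and 1.90-fold at the later ages in wild-type cortex. Without replicate 2 the fold at P7 was 2.335. In *Setd1a*+/- cortex the folds were 23.7, 9.29, 2.48, 2.14 and 1.77. The lead of glutamate carrier 1 thus narrowed in both genotypes, and it remained the higher of the 2 in all groups.

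The aspartate/glutamate carriers diverged. *Slc25a12* (aralar, the form known from brain and muscle) was at 8.16, 8.96, 9.57, 9.99 and 10.1 RPKM in the wild-type libraries at E14 and at 20.2, 20.2, 20.7, 22.2 and 22.7 RPKM at P70, a log2 change of 1.18 (standard error 0.054). *Slc25a13* (citrin, the form known from liver) was at 1.97, 2.80, 3.26, 3.46 and 4.13 RPKM at E14 and at 0.484, 0.574, 0.586, 0.609 and 0.659 RPKM at P70, a log2 change of -2.42 (edgeR, standard error 0.17, adjusted p = 1.76e-17), the largest fall among the members. The fold of aralar over citrin was 3.08 at E14 and then 8.45, 40.2, 40.6 and 36.6 at the later ages in wild-type cortex, and from 2.74 to 8.96, 37.3, 36.8 and 33.2 in *Setd1a*+/- cortex. The difference in ratio between E14 and P70 was thus reached by P7. The summed level of 6 progenitor markers, all of them lower at P70, went from 1233 to 1792 CPM at E14 to 60.4 to 82.3 CPM at P70 in wild-type libraries, and its part in the fall of *Slc25a13* was not tested.

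**Figure D2:**
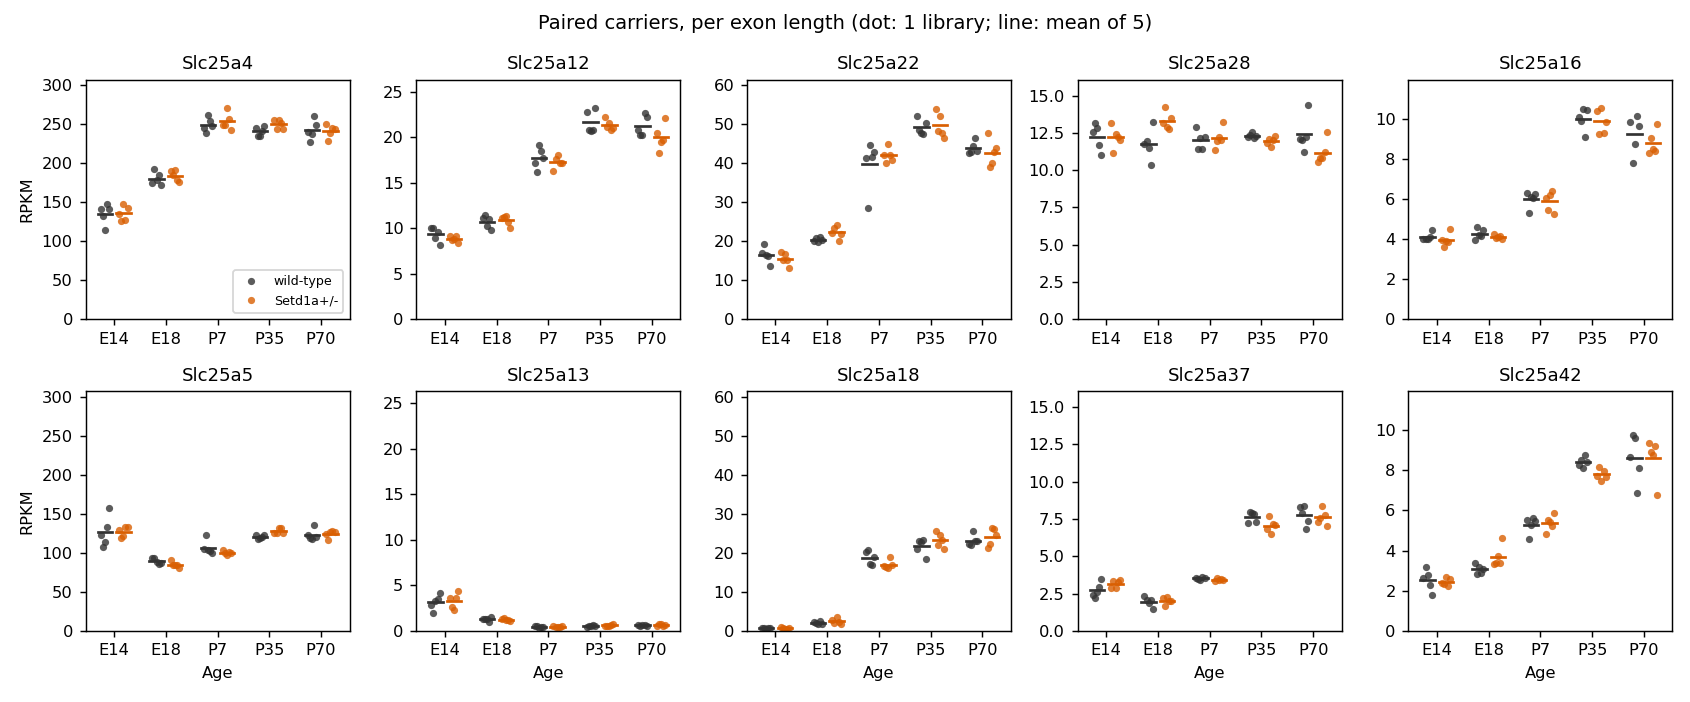
RPKM of 5 pairs of related carriers in each library (dots) with the mean of 5 (lines), wild-type in grey and *Setd1a*+/- in orange, by age on the horizontal axis; each column holds one pair on a shared scale from 0. *Slc25a12* rises and *Slc25a13* falls to 0.583 RPKM at P70, *Slc25a18* approaches *Slc25a22*, and *Slc25a37* rises towards *Slc25a28*.

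Of the remaining carboxylate carriers, *Slc25a1*, which exports citrate for lipid synthesis, was the member with the sharpest late fall. Its log2 changes in wild-type cortex were 0.26 from E14 to E18 and 0.15 from E18 to P7, both called. The latter was 0.23 without wild-type replicate 2 at P7, and its call was lost with library size only (adjusted p = 0.143, edgeR) and without any one of wild-type replicates 1 and 3 at E18 and 1, 3, 4 and 5 at P7 (up to 0.175). *Slc25a1* then fell by 1.23 on the log2 scale from P7 to P35, a fall of 1.24 in *Setd1a*+/- cortex. Wild-type libraries held 64.5, 85.6, 86.8, 91.2 and 94.5 CPM at P7 and 34.3, 34.9, 36.1, 37.4 and 37.6 CPM at P35, with no overlap. The lowest value at P7 is again that of replicate 2. *Slc25a10*, the dicarboxylate carrier, had a log2 change of -0.55 from E14 to P70, and *Slc25a11*, which exchanges oxoglutarate for malate, one of 0.47. The 4 enzymes of the malate-aspartate shuttle were also all called higher at P70 than at E14 in wild-type cortex, with log2 changes of 2.90 for *Got1*, 2.11 for *Mdh1*, 0.83 for *Got2* and 0.38 for *Mdh2*. The cytosolic enzymes *Got1* and *Mdh1* had the larger changes of the 4.

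Of 7 carriers of amino acids, acylcarnitine and glutathione, 1 was called higher and 3 lower at P70 than at E14 in wild-type cortex. *Slc25a44*, a branched-chain amino acid carrier, rose by 0.88. *Slc25a20*, which imports acylcarnitines for fatty acid oxidation, had a log2 change of -1.09 (standard error 0.074, adjusted p = 4.65e-18, edgeR), with 19.6, 21.6, 22.2, 22.4 and 25.8 CPM at E14 and 9.79, 10.3, 10.4, 10.5 and 11.4 CPM at P70 in wild-type libraries. It was among the 5 largest falls, and the libraries of the 2 ages did not overlap. *Slc25a29* (basic amino acids) and *Slc25a39* (glutathione) each had a log2 change of -0.27, while *Slc25a15* (ornithine and citrulline), *Slc25a38* (glycine) and *Slc25a40* (glutathione) were not called.

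Among 9 carriers of nucleotides and cofactors, 6 were called higher and 3 lower at P70, where 85.6% of all tested genes were called. *Slc25a33*, a pyrimidine nucleotide carrier, was at 7.85, 8.01, 9.84, 10.3 and 10.6 CPM in the wild-type libraries at E14 and at 30.0, 33.0, 34.7, 36.03 and 38.8 CPM at P70, a log2 change of 1.89 (edgeR, standard error 0.079, adjusted p = 9.7e-26). Its relative *Slc25a36* had a change of the other sign, -0.54. Of the exonic bases of *Slc25a33*, 14.9% are shared with the annotated gene *Gm13068*, and a fragment there was counted for both. The 2 coenzyme A carriers rose together: *Slc25a42* from 1.77, 2.30, 2.65, 2.76 and 3.17 RPKM at E14 to 6.88, 8.12, 8.69, 9.62 and 9.75 RPKM at P70 (log2 change 1.77, standard error 0.10) and *Slc25a16* from 3.98, 4.01, 4.02, 4.08 and 4.45 RPKM to 7.79, 8.73, 9.62, 9.81 and 10.1 RPKM (1.17, standard error 0.065). Their ratio, 1.65-fold in favour of *Slc25a16* at E14, was 1.07-fold at P70, where it lay on both sides of 1 among wild-type libraries. *Slc25a26* (S-adenosylmethionine) and *Slc25a32* (folate and FAD) rose by 1.43 and 0.72, and *Slc25a17* (a peroxisomal cofactor carrier) and *Slc25a51* (NAD) had changes of -0.9997 and -0.27.

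The mitoferrins import iron for haem and iron-sulphur cluster synthesis. *Slc25a28* (mitoferrin 2, the widely expressed form) was not called in wild-type cortex, at 11.03, 11.7, 12.5, 12.8 and 13.2 RPKM at E14 and at 11.2, 12.0, 12.1, 12.2 and 14.4 RPKM at P70 (log2 change 0.02, standard error 0.058, turning to -0.09 with library size only, -0.02 without the 3 libraries that stood apart and -0.05 without wild-type replicate 5 at P70). With only genes of 10 CPM kept, *Slc25a28* was called higher at P70 in wild-type cortex. In *Setd1a*+/- cortex its log2 change between these ages was -0.13 (adjusted p = 0.0406, edgeR). The adjusted p ranged from 1.52e-05 to 0.404 in the alternative settings, and DESeq2 (0.168) was among those that lost this call. It was also lost without any one of *Setd1a*+/- replicates 1, 3 and 4 at E14 and 1, 2, 3 and 4 at P70 (up to 0.134). *Slc25a37* (mitoferrin 1, known from developing red cells) was at 2.22, 2.40, 2.61, 2.95 and 3.47 RPKM at E14, at 1.49, 1.87, 2.06, 2.07 and 2.31 RPKM at E18 and at 6.805, 7.36, 7.93, 8.29 and 8.39 RPKM at P70 (log2 change from E14 to P70 of 1.51, standard error 0.087, adjusted p = 1.73e-20, edgeR). Its rise therefore came after E18. The 5 erythroid markers (haemoglobin genes and *Alas2*) were all called lower at P70 than at E14, with log2 changes from -2.66 to -1.49. From E14 to E18 their changes ran from -1.34 to -0.65 (4 called lower) beside -0.48 for *Slc25a37*, from E18 to P7 from -1.07 to -0.075 (2 called lower) beside 0.84, and from P7 to P35 from 0.50 to 0.77 (1 called higher) beside 1.12, all in wild-type cortex. Their part in the changes of *Slc25a37* was not tested. The fold of mitoferrin 2 over mitoferrin 1 went from 4.54 at E14 to 1.60 at P70 in wild-type and from 3.86 to 1.47 in *Setd1a*+/- cortex.

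The uncoupling-protein-like carriers, whose substrates in brain are debated, split: *Slc25a14* rose by 1.20 between E14 and P70 in wild-type cortex, nearly all of it between P7 and P35 (1.02), while *Slc25a27* and *Slc25a30* had log2 changes of -0.86 and -1.63. *Slc25a30* was at 22.4, 23.0, 23.2, 25.1 and 25.7 CPM in the wild-type libraries at E14 and at 6.77, 6.98, 7.28, 8.52 and 9.05 CPM at P70 (standard error 0.088, adjusted p = 1.46e-21, edgeR), and it fell in each of the first 3 steps. Under other symbols, the SLC25 proteins *Ucp2*, *Mtch1* and *Mtch2* had log2 changes of -0.11, 0.05 and -0.43, of which that of *Mtch2* was called, and *Ucp3* one of 4.46 from a low level.

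Among the 6 members of the outer membrane or of unsettled substrate, 4 were called higher and 1 lower at P70. *Slc25a34* was at 0.176, 0.271, 0.298, 0.307 and 0.323 CPM in the wild-type libraries at E14 and at 6.03, 7.39, 7.46, 8.35 and 8.95 CPM at P70 (log2 change 4.78, standard error 0.22), and 3.67 in *Setd1a*+/- cortex. It reached the level for members only in postnatal libraries, so this rise is part of how it entered. Its libraries at E14 held 7 to 27 counts, so the change in either genotype starts from values near the floor. *Slc25a45* rose by 1.505, *Slc25a35* by 0.59 and *Slc25a46*, an outer-membrane protein of mitochondrial fusion and fission, by 0.86. *Slc25a47* was the second largest fall of all members, with a log2 change of -1.71 (standard error 0.10, adjusted p = 8.7e-20, edgeR), and *Slc25a53* was not called. Of the exonic bases of *Slc25a35*, 31.3% are shared with *Rangrf*.

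Other transport proteins of the mitochondrial membranes (pyruvate carriers, porins, the calcium uniporter and sideroflexins) numbered 12 in the list used, of which 9 were called higher and 2 lower at P70 than at E14 in wild-type cortex (backgrounds 42.8% and 42.9%). The pyruvate carrier subunits *Mpc1* and *Mpc2* rose by 1.12 and 1.15, and among the regulators of the uniporter *Micu3* rose by 2.10 while *Micu2* had a change of -1.28. Of 6 regulators of mitochondrial genes, *Ppargc1a*, *Ppargc1b* and *Esrra* were called higher (2.06, 3.76 and 0.62) and *Nrf1*, *Gabpa* and *Tfam* lower (-1.74, -0.55 and -0.62).

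The genotype comparison asked which carriers differed in *Setd1a*+/- cortex with age as a covariate. *Slc25a11*, the oxoglutarate/malate carrier of the malate-aspartate shuttle, and *Slc25a47*, an orphan carrier known mainly from liver, were lower. These were 2 of the 40 members (5%), both in the lower direction, against a background of 4.43% of tested genes called and 3.75% called lower. The share of the members that were called is near the background. Without the 3 libraries that stood apart 3 members were called, all lower (background 4.22%), *Slc25a1* being the one gained (adjusted p = 0.0151, edgeR). At an unadjusted p under 0.05 there were 8 members (20%, background 14.5%), 23 of 40 had a log2 fold change under 0 (57.5%, background 49.1%), and the median was -0.01 for the members and 0.00 for all tested genes.

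**Figure D3:**
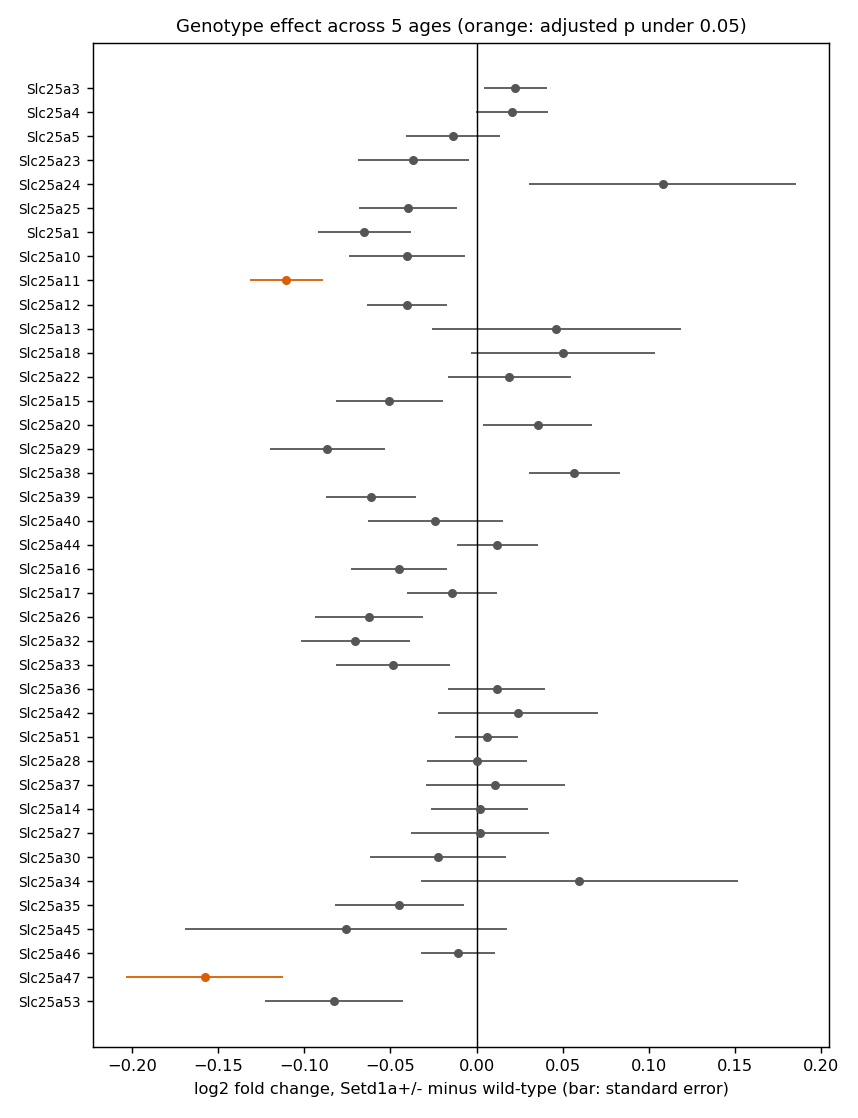
Log2 fold change of 39 members in *Setd1a*+/- relative to wild-type cortex with age as a covariate (dots) and the standard error (bars), ordered by role, from 25 libraries of each genotype. *Slc25a11* (-0.11) and *Slc25a47* (-0.16), in orange, have an adjusted p under 0.05, and all those drawn lie between -0.16 and 0.11.

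*Slc25a11* (ENSMUSG00000014606) was at 62.4, 65.3, 65.7, 66.7 and 69.1 CPM in wild-type and at 54.8, 58.9, 61.4, 61.9 and 64.1 CPM in *Setd1a*+/- libraries at E14. At E18 it was at 57.0, 62.4, 63.0, 63.7 and 64.0 CPM in wild-type and at 55.5, 58.8, 58.8, 59.8 and 60.3 CPM in *Setd1a*+/- libraries. At both embryonic ages the ranges overlapped, and 4 of 5 *Setd1a*+/- values at E14 lay under the lowest wild-type value. At P7 the libraries separated, with 64.5, 65.5, 67.0, 68.0 and 70.2 CPM against 56.1, 59.1, 60.0, 60.5 and 63.8 CPM. At P35 it was at 89.7, 92.0, 94.2, 95.7 and 97.5 CPM against 89.9, 90.4, 90.6, 91.8 and 93.5 CPM, and at P70 at 79.7, 89.0, 91.0, 94.7 and 101.6 CPM against 78.5, 79.8, 81.1, 81.9 and 92.1 CPM. The mean was lower in *Setd1a*+/- cortex at 5 of 5 ages. Across ages the log2 fold change was -0.11 (standard error 0.021, adjusted p = 0.000401, edgeR), the 146th smallest p of the tested genes. The adjusted p stayed between 4.02e-05 and 0.00145 in 11 alternative settings and under 0.05 with each of the 50 libraries left out in turn. Of its exonic bases, 8.92% are shared with *Rnf167*, the gene on the opposite strand.

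**Figure D4:**
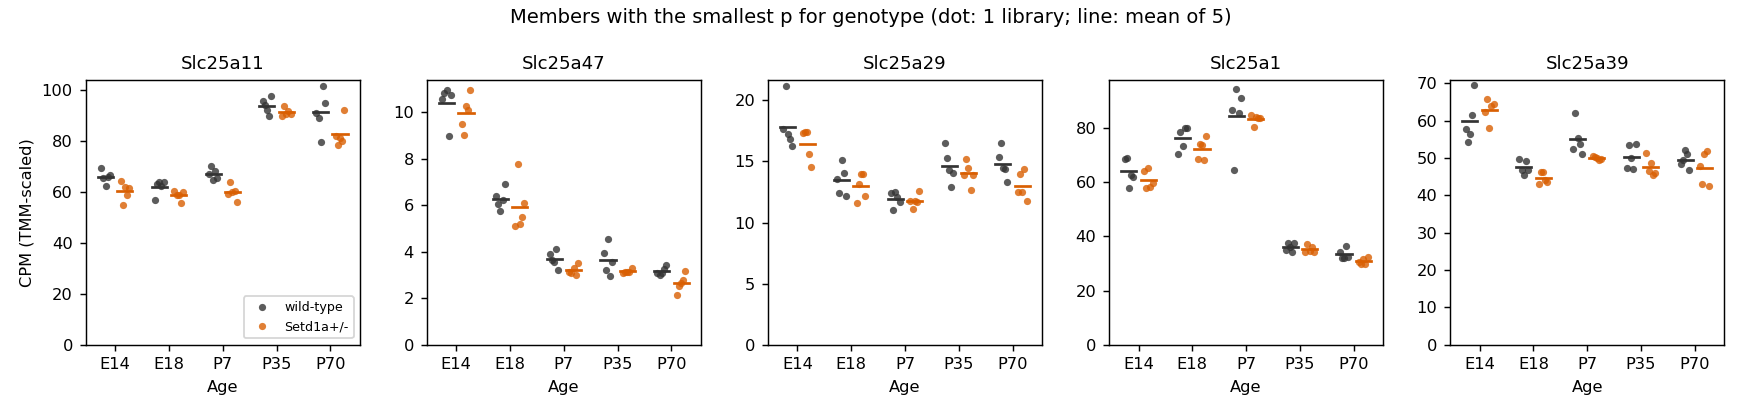
TMM-scaled CPM of the 5 members with the smallest p for genotype in each library (dots) with the mean of 5 (lines), wild-type in grey and *Setd1a*+/- in orange, by age. The mean of *Slc25a11* is lower in *Setd1a*+/- libraries at each age, with overlap of the libraries at every age but P7, *Slc25a47* lies between 2.15 and 4.56 CPM from P7 on, and *Slc25a1* has one low wild-type library at P7 (64.5 CPM).

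*Slc25a11* lies head to head with *Rnf167*, which encodes a ubiquitin ligase of endosomes and lysosomes. The outermost GENCODE starts of the 2 genes, 70647479 and 70647235 on chromosome 11, lie 244 bases apart with the gene bodies overlapping. RefSeq places the start of *Slc25a11* at 70647039, and 295 of the 300 bases in the RefSeq promoter window of *Slc25a11* also belong to that of *Rnf167*. The window, chr11:70646990-70647289 on the minus strand of GRCm38.p6, covers 250 bases before to 50 bases after this RefSeq start, does not hold the outermost GENCODE start, and holds 24 CG dinucleotides, printed in capitals because trimethylation of H3 lysine 4, the mark laid down by Setd1a-containing complexes, is typical of promoters rich in CG.

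Slc25a11: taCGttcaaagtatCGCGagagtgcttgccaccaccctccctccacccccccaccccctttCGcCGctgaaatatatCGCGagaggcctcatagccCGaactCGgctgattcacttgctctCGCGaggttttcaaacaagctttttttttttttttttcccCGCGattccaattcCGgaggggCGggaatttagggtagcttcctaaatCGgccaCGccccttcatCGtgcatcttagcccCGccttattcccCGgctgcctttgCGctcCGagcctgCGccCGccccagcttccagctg

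From the same region, *Rnf167* differed by -0.04 on the log2 scale across ages (standard error 0.022, adjusted p = 0.389) and was not called. Whether the 2 genes differ in their response was not tested. Of the 5 tested genes within 20000 bases of *Slc25a11*, looked up after its call was known, *Eno3* (-0.44, standard error 0.051, adjusted p = 6.42e-08), a glycolytic enzyme, and *Spag7* (-0.09, standard error 0.029, adjusted p = 0.0449) were also lower, while *Rnf167*, *Pfn1* (0.02) and *Gp1ba* (0.01) were not called.

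*Slc25a47* (ENSMUSG00000048856) had 74 to 470 counts per library. At E14 it was at 8.96, 10.6, 10.7, 10.8 and 10.9 CPM in wild-type and at 9.0, 9.51, 10.1, 10.2 and 10.9 CPM in *Setd1a*+/- libraries, and at E18 at 5.74, 6.05, 6.21, 6.40 and 6.89 CPM against 5.11, 5.20, 5.50, 6.09 and 7.77 CPM. At P7 it was at 3.23, 3.57, 3.63, 3.89 and 4.10 CPM against 3.01, 3.10, 3.11, 3.32 and 3.53 CPM. Ranges overlapped at all 3 ages. At P35 it was at 2.97, 3.23, 3.55, 3.96 and 4.56 CPM in wild-type and at 3.10, 3.11, 3.12, 3.14 and 3.29 CPM in *Setd1a*+/- libraries, and at P70 at 3.00, 3.08, 3.09, 3.25 and 3.44 CPM against 2.15, 2.52, 2.65, 2.76 and 3.15 CPM. The mean was lower in *Setd1a*+/- cortex at 5 of 5 ages, and across ages *Slc25a47* differed by -0.16 on the log2 scale (standard error 0.045, adjusted p = 0.0295, edgeR). The call was lost with limma-voom (adjusted p = 0.0794) and with the newer quasi-likelihood method of edgeR (0.0613), over a range of 0.0196 to 0.0794 in the alternative settings. With each library left out in turn, the adjusted p (edgeR) ranged from 0.00386, without *Setd1a*+/- replicate 2 at E18, to 0.0572. The call was also lost without *Setd1a*+/- replicate 1 at E18 (0.0513), wild-type replicate 3 at P35 (0.0572), *Setd1a*+/- replicate 1 at P70 (0.0542) or wild-type replicate 5 at P70 (0.0518).

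The gene model counted as *Slc25a47* holds 5 transcripts. Of these, 2 code for protein and start at 108851129 and 108851139 of chromosome 12, while 3 noncoding transcripts start up to 15083 bases further upstream, and 1085 of the 2985 exonic bases lie outside the coding transcripts. The first start of the model lies within 500 bases of that of *Slc25a29* on the opposite strand, and 2 of the noncoding transcripts start inside the RefSeq promoter window of *Slc25a29*. A gene-level count cannot tell the coding from the noncoding transcripts. The 2 windows are shown because they hold 4 of the 5 transcript starts of the counted gene, the fifth, of a noncoding transcript, lying at 108837064: that of *Slc25a29*, chr12:108835827-108836126 on the minus strand, holds 32 CG dinucleotides (capitals), and that of the coding start of *Slc25a47*, chr12:108850879-108851178 on the plus strand, holds 7.

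Slc25a29: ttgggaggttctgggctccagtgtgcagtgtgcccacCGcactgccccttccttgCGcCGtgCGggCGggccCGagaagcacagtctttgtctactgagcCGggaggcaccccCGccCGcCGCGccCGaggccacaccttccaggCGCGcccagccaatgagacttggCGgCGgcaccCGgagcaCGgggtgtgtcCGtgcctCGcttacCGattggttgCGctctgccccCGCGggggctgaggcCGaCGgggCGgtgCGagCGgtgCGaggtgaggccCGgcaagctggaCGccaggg
Slc25a47: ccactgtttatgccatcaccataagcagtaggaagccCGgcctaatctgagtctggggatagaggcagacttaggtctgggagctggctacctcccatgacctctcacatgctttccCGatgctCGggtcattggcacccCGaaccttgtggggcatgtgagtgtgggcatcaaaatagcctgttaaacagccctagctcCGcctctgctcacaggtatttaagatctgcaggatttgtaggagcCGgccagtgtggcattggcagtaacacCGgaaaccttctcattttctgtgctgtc

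*Slc25a29* had the third smallest p for genotype among the members. It was at 16.3, 16.9, 17.2, 17.6 and 21.2 CPM in wild-type libraries at E14 and at 13.3, 14.4, 14.4, 15.4 and 16.5 CPM at P70, against 14.6, 15.6, 17.3, 17.4 and 17.4 CPM and 11.7, 12.5, 12.5, 13.9 and 14.4 CPM in *Setd1a*+/- libraries. All these ranges overlapped between genotypes. Its log2 fold change across ages was -0.09 (standard error 0.033, adjusted p = 0.160), with the same sign at 5 of 5 ages, and it was not called. Of the other members, *Slc25a1* differed by -0.07 on the log2 scale (standard error 0.027, adjusted p = 0.206), again with the same sign at 5 of 5 ages, and *Slc25a39* by -0.06 (standard error 0.026, adjusted p = 0.232). For *Slc25a1* the outcome depended on 1 library: without wild-type replicate 2 at P7, the log2 fold change was -0.08 and the adjusted p 0.0122. In that library *Slc25a1* stood at 64.5 CPM, oligodendrocyte markers summed to 1278 CPM against 122 to 174.5 CPM in the other 4 wild-type libraries at P7, and progenitor markers to 365 CPM against 136 to 185 CPM. *Slc25a39* was at 51.1, 52.5, 53.9, 55.4 and 62.0 CPM in wild-type and at 49.5, 49.8, 49.9, 50.1 and 50.6 CPM in *Setd1a*+/- libraries at P7, with no overlap, and its mean was higher in *Setd1a*+/- cortex at E14.

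The regulators, shuttle enzymes and other transporters gave 0 calls for genotype by edgeR, of 6, 4 and 12 tested. The background of all tested genes was 4.43%, which also applies to the shuttle and marker counts across ages below. Among the 4 enzymes of the malate-aspartate shuttle, log2 fold changes ran from -0.03 to 0.00, so *Slc25a11* was the one called gene among the shuttle's 3 carriers and 4 enzymes, with *Slc25a12* at -0.04 (adjusted p = 0.458) and *Slc25a13* at 0.05 (adjusted p = 0.865). A test of the difference between *Slc25a11* and these genes was not made. The markers of neurons, progenitors, astrocytes, oligodendrocytes, microglia, endothelial cells, erythroid cells and choroid plexus also gave 0 calls across ages. Their log2 fold changes ran from -0.13 to 0.02 for neurons, -0.33 to -0.02 for progenitors, -0.13 to 0.07 for astrocytes, -0.72 to -0.08 for oligodendrocytes, 0.00 to 0.12 for microglia, 0.04 to 0.13 for endothelial cells and pericytes, -0.10 to -0.02 for erythroid cells and -2.57 to 0.18 for choroid plexus, and their part in the difference of *Slc25a11* was not tested. At P7 alone, 3 of 5 oligodendrocyte markers and 1 of 4 choroid plexus markers were called lower in *Setd1a*+/- cortex, against 0.723% of all tested genes. These calls include wild-type replicate 2 at P7, the library described above. Without that library the share of all tested genes called at P7 went from 0.735% to 0.0427%. The marker calls are not given without it. The log2 fold change of *Slc25a11* across ages without the 3 libraries that stood apart was -0.10.

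Single ages asked when carriers differed. By edgeR 0 of 40 members were called at any of the 5 ages, against backgrounds, from E14 to P70, of 0.129%, 0.11%, 0.735%, 0% and 0.233%, and DESeq2 and limma-voom gave 0 at each age too (backgrounds of 0.698%, 0.68%, 0.784%, 0.0674% and 0.472% for DESeq2 and of 0.159%, 0.0612%, 0.098%, 0% and 0.184% for limma-voom). The backgrounds depended on the libraries that stood apart. Without all 3 they were 7.11% at E14, 1.17% at E18 and 0.0549% at P7, without wild-type replicate 2 at E18 alone 0.335% at E18, and without wild-type replicate 2 at P7 alone 0.0427% at P7. In these fits 0 members were called at E18 and P7, and without all 3 libraries 5 were called at E14, 0 at P35 (background 0.0305%) and 0 at P70 (background 0.348%). At an unadjusted p under 0.05 there were 6, 7, 3, 1 and 4 members (backgrounds 11.6%, 11.4%, 8.86%, 3.37% and 6.55%). Groups without overlap were seen for 2 members at P7 (*Slc25a11* and *Slc25a39*, both lower, background 2.23%), for 1 at P35 (background 2.25%) and for 0 at E14, E18 and P70 (backgrounds 0.784%, 2.22% and 1.79%). The member at P35 was *Slc25a5*, with 118, 119, 120, 122 and 123 RPKM in wild-type and 125, 126, 126, 131.3 and 131.6 RPKM in *Setd1a*+/- libraries. Its log2 fold change was 0.09 at that age and -0.09 at P7, or -0.04 at P7 without wild-type replicate 2.

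At E14 the count of members changed when either of 2 libraries was left out. Without wild-type replicate 5, 3 members were called (background 4.55%), all higher in *Setd1a*+/- cortex: *Slc25a24* (log2 fold change 0.56, adjusted p = 0.0406), *Slc25a34* (0.95, adjusted p = 0.0360) and *Slc25a37* (0.31, adjusted p = 0.0312). With that library they had log2 fold changes of 0.42, 0.90 and 0.21 and adjusted p of 0.226, 0.107 and 0.277 (edgeR). Without *Setd1a*+/- replicate 5, 1 member was called, *Slc25a34* (0.98, adjusted p = 0.0483, background 0.908%). Without the 3 libraries that stood apart, 3 members were called higher and 2 lower, against the background of 7.11%, and *Slc25a23* was among the lower (-0.20, adjusted p = 0.04025). *Slc25a34* was at 0.303, 0.396, 0.575, 0.623 and 0.683 CPM in *Setd1a*+/- libraries at E14, near the level at which counting error matters, and *Slc25a37* at 2.87, 2.90, 3.30, 3.33 and 3.40 RPKM, the wild-type values being those given with the age changes. *Slc25a24* was at 6.9, 7.81, 9.02, 9.39 and 12.4 CPM in these *Setd1a*+/- libraries, the highest value being that of replicate 2. Wild-type replicate 5 held the highest wild-type value of *Slc25a24* at E14, 9.34 CPM. Erythroid markers, which include the haemoglobin genes, summed to 321, 326, 369, 491.9 and 1026 CPM in wild-type libraries at E14, with the highest value in replicate 5, and to 254.5, 779, 899.7, 900.0 and 950.2 CPM in *Setd1a*+/- libraries. All 5 had log2 fold changes between 0.51 and 0.63 at E14, with 0 called. Endothelial and pericyte markers summed to 137 to 167 CPM in wild-type libraries and to 140, 147, 148, 227 and 611 CPM in *Setd1a*+/- libraries at E14. The part of these markers in the difference of *Slc25a37* was not tested.

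Finally, the joint test of the 4 age by genotype terms called 0 of 40 members (edgeR, background 0%, and 0 by DESeq2 and limma-voom, backgrounds 0.129% and 0%), with 2 at an unadjusted p under 0.05 (background 6.72%). Without the 3 libraries that stood apart it also called 0 (background 0.293%). By edgeR, with all libraries, these were *Slc25a28* (unadjusted p = 0.00496, adjusted p = 0.458), with log2 fold changes of 0.18 at E18 and -0.15 at P70, and *Slc25a34* (unadjusted p = 0.00918, adjusted p = 0.5). For *Slc25a28*, wild-type libraries at E18 were at 10.3, 11.4, 11.7, 12.0 and 13.2 RPKM and *Setd1a*+/- libraries at 12.7, 12.9, 13.2, 13.5 and 14.3 RPKM, whereas at P70 the *Setd1a*+/- libraries were at 10.5, 10.8, 10.8, 11.2 and 12.6 RPKM. RNA integrity was on average lower in the *Setd1a*+/- libraries at E18, and with it as a covariate the log2 fold change of *Slc25a28* at that age was 0.17 (standard error 0.065, adjusted p = 0.638, edgeR) and the unadjusted p of its interaction 0.0211.

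RefSeq promoter windows were found for 31 of the 40 members. The median number of CG dinucleotides in the 300 bases was 18 for the members and 20 for 11558 expressed protein-coding genes, and 25 of 31 windows (80.6%, against 79.6%) held 10 or more. The largest risers did not share this feature: *Slc25a34* and *Slc25a18* held 1 and 4, *Slc25a33* and *Slc25a42* held 30 and 26. Searched on both strands, CCGGAAG, the core of an ETS-type element, was in 6 of 31 member windows (19.4%, against 16.4% of all windows), namely those of *Slc25a3*, *Slc25a4*, *Slc25a17*, *Slc25a20*, *Slc25a25* and *Slc25a38*, and in neither *Slc25a11* nor *Slc25a47*. The consensus NRF1 element and TCAAGGTCA, an oestrogen-related receptor element, were in 0 of 31 (1.90% and 0.268% of all windows). By the outermost start of any transcript, 7 of the 40 members (17.5%) start within 500 bases of a protein-coding gene on the other strand, against 12.1% of expressed protein-coding genes, and 2 of the 7 are *Slc25a29* and *Slc25a47*. By the outermost start of a coding transcript, 5 (12.5%) do, against 11.9%, and neither *Slc25a29* nor *Slc25a47* is among them.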

How the data were processed

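Per the submitters' processing notes and methods, the authors used Trimmomatic for trimming and STAR for alignment to GRCm38, and assigned fragments to genes by featureCounts 1.4.6-p2 on exons of Ensembl release 102, with no strand and with a fragment over several genes counted for each. The deposited values are raw counts per library with no normalization by the authors. Members and lists were chosen with earlier results of these data known. Protein-coding genes that passed filterByExpr of edgeR (minimum count 10) were scaled by TMM and fitted by the quasi-likelihood method of edgeR 4.0.16 (R 4.3.3, legacy form), with age as a covariate for genotype and with the 10 groups for single ages, age steps and the interaction. All p were adjusted by the Benjamini-Hochberg method over 16330 genes. RPKM divides the scaled CPM by the exon length in the files, and log2 CPM used a prior count of 2. A standard error, an adjusted p or both were given for the 5 members with the smallest genotype p, the 5 largest rises and the 5 largest falls, and 5 pairs of related carriers. DESeq2 1.42.0, limma-voom (limma 3.58.1), 2 other scalings, 3 other filters on low counts, RNA integrity as a covariate, a replicate block, a stricter threshold and leaving libraries out were the alternatives, and the newer quasi-likelihood method was added after seeing the data. The fits were tested on simulated data, with 100 genes changed by 0.3 and 100 by 1 on the log2 scale. Of changes of 0.3, 66% were recovered for genotype across ages, 33% for genotype at E18 and 14% in the interaction. Of changes of 1, the shares were 97%, 78% and 69%. Counts of 0 at single ages and in the interaction therefore do not show that members were unchanged. No 2 libraries of a group agreed within sampling noise. The methods describe the postnatal animals as littermates, but the labels tie no library to a litter, so shared litters could not be taken into account, and p-values measure the spread between these samples. Totals per library make counting error small except for members with few counts. Promoter sequences are from RefSeq (GRCm38.p6). Plots came from matplotlib 3.10.9 (Python 3.11.15). Results for 1 member and 1 marker gene are not reported here, although counts over all members include the former.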

Additional observations from a re-analysis of the deposited data

Results flagged for a closer look

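In 20 members followed by library, 200 groups of 5 were searched for a library far from the other 4, and 18 such values were found. Chance alone marks about 1 in 20 groups, and all values here are CPM. Wild-type replicate 2 at P7, the library with choroid plexus and oligodendrocyte transcripts, gave 4 of the 18: *Slc25a1* at 64.45 against 85.6 to 94.5, *Slc25a22* at 170.0 against 247.1 to 268.0, *Slc25a16* at 25.33 against 28.9 to 30.1, all low, and *Slc25a5* at 202.1 against 165 to 172, high.

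Of the members called for genotype, *Slc25a11* stood apart in wild-type replicate 1 at E18 (56.95 against 62.4 to 64.0) and in *Setd1a*+/- replicate 5 at P70 (92.14 against 78.5 to 81.9). Both lie towards the other genotype. *Slc25a47* stood apart in wild-type replicate 4 at E14 (8.957 against 10.6 to 10.9) and in *Setd1a*+/- replicate 5 at P35 (3.287 against 3.10 to 3.14).

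The other 10 values were single libraries. In *Setd1a*+/- cortex these were *Slc25a1* in replicate 2 at P7 (80.24), *Slc25a33* in replicate 3 at E18 (13.52), *Slc25a42* in replicate 5 at P70 (40.52), *Slc25a30* in replicate 4 at E18 (16.22), *Slc25a20* in replicate 3 at E14 (21.53) and *Slc25a5* in replicate 2 at P70 (191.1). In wild-type cortex they were *Slc25a33* in replicate 5 at P7 (18.76), *Slc25a30* in replicate 1 at P35 (7.347), *Slc25a24* in replicate 3 at P70 (2.167) and *Slc25a16* in replicate 5 at E14 (21.34).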

How the results depend on the processing

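None of the genotype fold changes of the 5 members with the smallest p and none of the 5 largest rises and 5 largest falls from E14 to P70 in wild-type cortex changed direction in the alternatives run. Some small changes that were not called did. The change of *Slc25a28* from E14 to P70 in wild-type cortex, 0.02 and not called, turned to -0.09 with library size only, -0.02 without the 3 libraries that stood apart, -0.02 without wild-type replicate 5 at E14 and -0.05 without wild-type replicate 5 at P70, and was called at 0.11 with genes of 10 CPM (adjusted p = 0.048, edgeR). That of *Slc25a5*, -0.04 and not called, turned to 0.0014 with DESeq2, 0.05 with genes of 10 CPM, 0.04 without the 3 libraries and 0.05 without wild-type replicate 5 at E14, and was called at -0.16 with library size only (adjusted p = 0.0397, edgeR). With library size only, the median of all genes changed sign in several comparisons, among them from -0.01 to 0.04 from E14 to E18 in wild-type cortex, from 0.0012 to -0.0061 for genotype across ages and from -0.0287 to 0.0037 for genotype at E14. The 2 members called for genotype across ages (4.43% of all genes called) became 1 at an adjusted p under 0.01 (2.49%) and 1 with limma-voom (4.61%). The count was also 1 with the newer quasi-likelihood method (4.81%), which was chosen after seeing the data. It became 3 without the 3 libraries that stood apart (4.22%), *Slc25a1* being gained (adjusted p = 0.0151, edgeR). With each library left out it ranged from 1 (3.88% to 4.14%) to 3 (4.49%). The causes were not tested. At E14 the count of 0 (0.129% of all genes called) became 5, 3 higher and 2 lower, without the 3 libraries that stood apart (7.11%) and ranged from 0 to 3 with each library left out (4.55% without wild-type replicate 5). From P35 to P70 in *Setd1a*+/- cortex the count of 0 (2.98% of all genes called) became 2 with DESeq2 (4.32%), 2 with library size only (3.53%), 1 with genes of 10 CPM (5.27%) and 3 without the 3 libraries (4.87%), and ranged from 0 to 4 with each library left out, 4 being the count without *Setd1a*+/- replicate 5 at P70 (6.27%). From P7 to P35 in *Setd1a*+/- cortex, 2 members (5%) changed at least 2-fold, against 19.6% of all genes, and 1 did with library size only. Scaling by library size moved the median of all genes by -0.09 from P7 to P35 and by -0.11 from E14 to P70 in wild-type and by -0.15 from E14 to P70 in *Setd1a*+/- cortex.

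With a replicate block, 2 members were called across ages (4.81% of all genes) and 0 at each age (0.0184% to 0.239%) and in the interaction (0.0184%). Deviations of same-numbered libraries correlated from -0.20 to 0.46. Whether such libraries share more than a number, such as a litter, cannot be told from this range. The block could not be fitted for changes between ages. Depth limits members under about 1 CPM, such as *Slc25a34* before birth.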
